A study of Rattus norvegicus with 80 samples.

Results

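Whole mammary pads of PS rats, one of 3 lines carrying a mutated Nf1 gene, were compared with whole mammary pads of wildtype rats. The comparison held 12 of the 80 libraries of the series, 6 of PS pads and 6 of wildtype pads, taken by their tissue and genotype labels. Titles number the pads in sets 1-12 and 13-21, and each set holds 3 PS and 3 wildtype pads. Pads 1 to 3 of a line, as numbered here, belong to set 1-12 and pads 4 to 6 to set 13-21. The remaining 9 whole pads, 6 of the IFPS line and 3 of the IF line, entered the fit to share its estimate of the spread. The labels name the lines IF, PS and IFPS without spelling these names out, and give no age, treatment, allele or number of animals. They do not say what separates the sets, nor that the libraries came from separate animals, so every p-value measures the spread between these libraries, which may be technical. A check on sorted or cultured cells of the same lines used 3 PS and 3 wildtype libraries each of mammary epithelial cells (MECs), adipocytes and fibroblasts. The series calls these cells flow sorted, and the protocols describe the MECs and fibroblasts as cultured and the adipocytes as mature.

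Nf1 encodes neurofibromin, a GTPase-activating protein that returns Ras from its active GTP-bound form to its inactive GDP-bound form, so that loss of neurofibromin raises signalling through the MAPK cascade. A mammary pad is a fat depot through which a tree of epithelial ducts grows, with a layer of myoepithelial cells around the ducts and fibroblasts, collagen, blood vessels, nerves, lymph nodes and immune cells in the stroma. RNA of a whole pad mixes all of these, and in such bulk RNA fewer cells of a type and less RNA per cell cannot be told apart. The series title concerns collagen deposition and adipocyte differentiation before tumors form, and the comparison asks how the unsorted pad of one mutated line differs from that of wildtype rats.

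The deposited table identifies genes by Ensembl rat identifiers alone, and 0 of its 32883 identifiers could be matched to a symbol with the reference used here. The level of Nf1, collagen, adipocyte and MAPK genes and the markers that would check the labelled tissue were therefore not analysed here. Results are given over all genes, over groups of genes defined from the wildtype cell libraries of the same table, and for 4 identifiers chosen by smallest p. The rule for the 4 also required pads without overlap between the lines and equal signs in the sets. Neither trait is therefore support for a difference in these 4.

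The PS pads held 21037525 to 32944187 counts and the wildtype pads 24178725 to 31579464 counts. From 18304 to 19688 genes had a count in a PS pad and from 18519 to 19818 in a wildtype pad. The 10 most abundant genes took 9.19 to 13.8% of the counts of a PS pad and 10.5 to 17.7% of those of a wildtype pad. Among the PS and wildtype pads, wildtype pads 4 and 5 stood apart, with 17.7% and 17.3% of counts in those genes and TMM normalization factors of 0.795 and 0.832, against 0.928 to 1.13 in the other 10 pads. Because they stand apart, calls are also given without them. IFPS pad 6, which entered the fit, was close to them, with 17% and a factor of 0.842, and was kept. Levels are in CPM, a gene's count scaled to its TMM-normalized library total. In 15 pairs of PS pads and 15 pairs of wildtype pads the lowest chi-square value divided by its degrees of freedom, over genes with at least 20 counts, was 57.5 and 28, so no pair within a line agreed within sampling noise.

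Across both sets, almost no gene separated PS from wildtype pads. Of 16384 genes tested, 1 passed an adjusted p of 0.05 in the edgeR quasi-likelihood test (Benjamini-Hochberg adjusted), which is 0.0061% of the genes, and it was lower in PS pads. At an unadjusted p under 0.05, 1033 genes (6.3%) were higher and 646 (3.94%) lower. The median size of the difference over all genes was 0.13 on the log2 scale and its 90th percentile 0.48. DESeq2 called 81 genes, 40 higher and 41 lower, and limma voom with sample quality weights called 6. Without wildtype pads 4 and 5, edgeR called 0 of 16355 genes, with 1172 at an unadjusted p under 0.05, limma voom with quality weights called 0 and DESeq2 called 36. Raising the adjusted p to 0.1 gave 3 genes, to 0.2 gave 7 and to 0.3 gave 91.

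Taken over both sets, the pads of a line resembled one another no more than they resembled pads of the other line. The median Spearman correlation across genes was 0.975 between PS pads, 0.976 between wildtype pads and 0.979 between a PS and a wildtype pad. Within a set and line it ran from 0.975 in PS pads 1 to 3 to 0.992 in wildtype pads 1 to 3. Between a PS and a wildtype pad of the same set it was lower, at 0.965 in set 1-12 and 0.965 in set 13-21. Inside a set, the pads of a line thus resembled one another more than those of the other line. Between PS pads 1 to 3 and PS pads 4 to 6 it was 0.967, and between the same sets of wildtype pads 0.961. These are correlations across genes, which are not independent replicates, and the pairs share libraries.

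The first principal component of the 12 pads carried 46% of the variance and placed the lines in opposite order in the sets. In set 1-12 the wildtype pads lay at -39.2, -43.7 and -46.3 and the PS pads at 65.4, -2.6 and 34.6. In set 13-21 the wildtype pads lay at 85.9, 55.6 and 7.7 and the PS pads at -40.6, -63.7 and -13.2. Within each set the lines did not overlap, and over both sets they overlapped throughout, with means of -3.35 in PS and 3.33 in wildtype pads. PS pad 3 stood alone on the second component (18.1% of the variance), at -83.3 against -17 to 39.9 for the others.

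**Figure D1:**
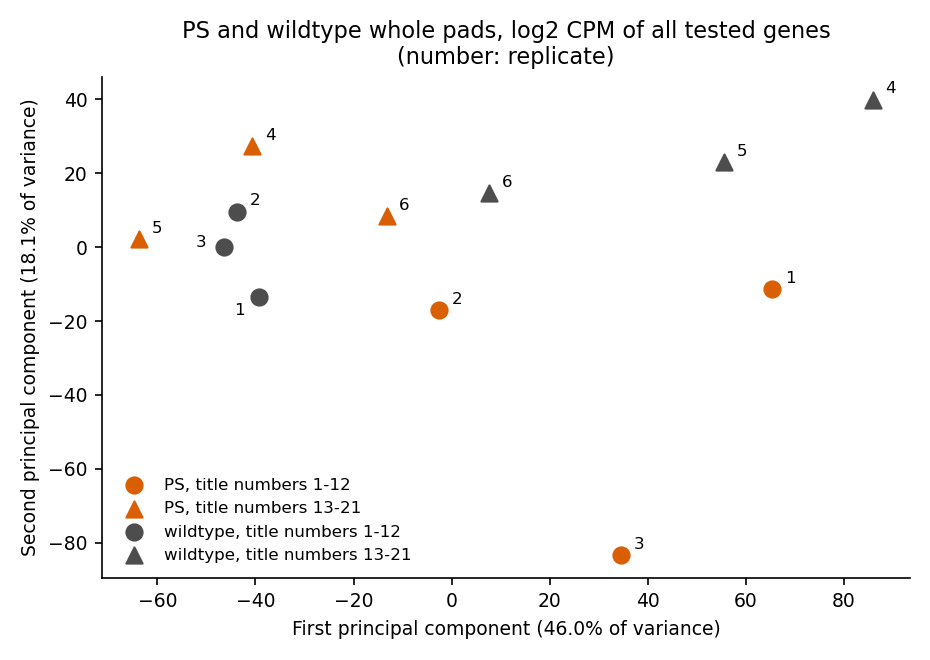
First against second principal component of log2 CPM in the 6 PS pads (orange) and 6 wildtype pads (gray), with title numbers 1-12 as circles, title numbers 13-21 as triangles and replicate numbers beside the points. PS circles lie to the right of wildtype circles, PS triangles lie to the left of wildtype triangles, and PS pad 3 lies alone at the bottom.

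The difference between PS and wildtype pads itself differed between the sets in 3120 of 15297 genes, or 20.4%, by the interaction of line and set in the edgeR quasi-likelihood test (Benjamini-Hochberg adjusted). For 1676 genes the difference was larger in set 13-21 and for 1444 smaller. In 3061 of the 3120 genes the PS difference had opposite signs in the sets. DESeq2 called 4410 genes in the same model. Without wildtype pads 4 and 5, 12 genes passed, in a fit in which wildtype pad 6 is the lone wildtype pad of its set and is assumed to vary like the other pads. Leaving out single pads gave between 1235 genes (without wildtype pad 2) and 5192 (without wildtype pad 6). The count also moved by more than 1.5 times without wildtype pad 1 (1899), 3 (1763), 4 (1643) or 5 (1405), and without PS pad 1 (1929), 4 (1435) or 5 (1280).

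Fitted alone, each set gave few calls. Set 1-12 gave 9 genes of 15574 (0.0578%), 8 higher and 1 lower in PS pads, and set 13-21 gave 3 of 15288 (0.0196%), all lower. The log2 fold changes of the sets, which share no library, ran against each other over 15135 genes, with a Pearson correlation of -0.61 and a Spearman correlation of -0.39 across genes. The same sign was found for 34.5% of genes. Of 1510 genes with an unadjusted p under 0.05 in both sets, which are 48.6% of such genes in set 1-12 and 33.1% of those in set 13-21, 65 (4.3%) had the same sign. Leaving out single pads moved the Pearson correlation between -0.68 (without PS pad 3) and -0.45 (without PS pad 1).

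**Figure D2:**
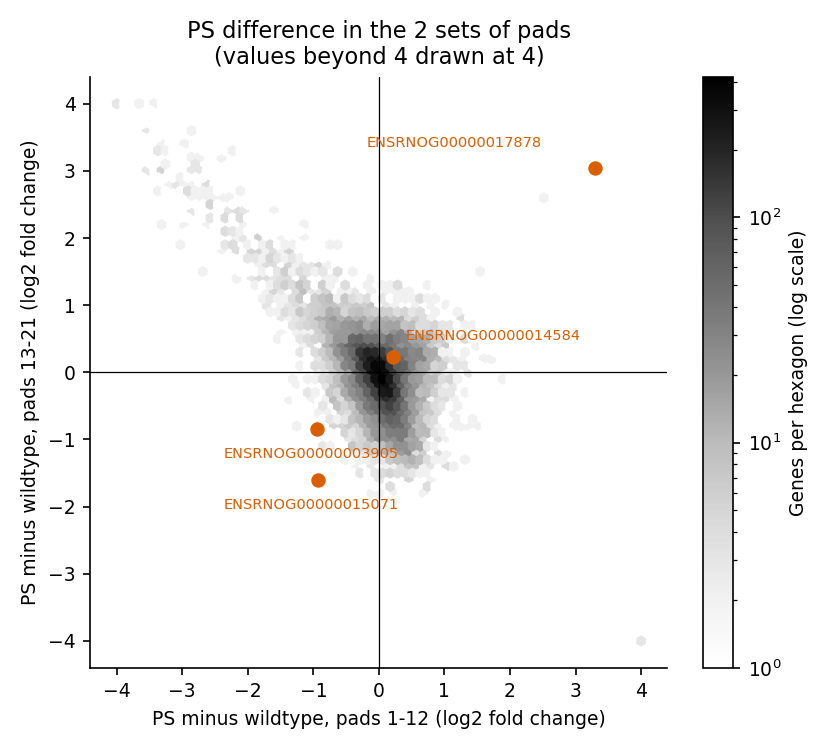
Log2 fold change of PS over wildtype pads in set 1-12 (x axis) against set 13-21 (y axis), with the shade of a hexagon giving its number of genes on a log scale and the 4 named identifiers in orange. Most of the cloud runs from upper left to lower right, and the named identifiers lie in the quadrants of equal sign, which the rule of their choice required.

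Pads outside the comparison also varied in these genes. Over the 1676 genes whose PS difference was larger in set 13-21, the mean log2 CPM was 4.32 to 4.53 in wildtype pads 1 to 3 and 2.97 to 3.73 in wildtype pads 4 to 6. In PS pads the order was turned, with 3.07 to 3.77 in pads 1 to 3 and 4.05 to 4.71 in pads 4 to 6. The genes were chosen by the test on these same PS and wildtype pads, so the turned order follows from the choice. IF and IFPS pads had no part in that test. Single pads of other lines lay at the low end beside their own line's higher pads. IFPS pad 3 had 3.57 against 4.45 and 4.72 in IFPS pads 1 and 2, IFPS pad 6 had 3.01 against 4.25 and 4.73 in IFPS pads 4 and 5, and IF pad 2 had 3.08 against 4.44 and 4.17 in IF pads 1 and 3.

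Depth and the number of detected genes moved with this order in PS and wildtype pads. PS pads 1 to 3 held 21037525 to 24473329 counts and wildtype pads 1 to 3 held 28766802 to 31579464. In set 13-21 the order was turned, with 26291047 to 32944187 counts in PS pads 4 to 6 and 24178725 to 25697571 in wildtype pads 4 to 6. Detected genes followed the same order, with 18304 to 19269 in PS pads 1 to 3, 19629 to 19818 in wildtype pads 1 to 3, 19606 to 19688 in PS pads 4 to 6 and 18519 to 19285 in wildtype pads 4 to 6. When all pads were thinned to the total of the shallowest one, 2967 genes differed between the sets. Thinning matched the total alone, and neither the detected genes nor the share of the 10 most abundant genes. In the IF and IFPS pads named above, depth followed the same order for some pairs of pads and not for others. IFPS pad 6 had 28921320 counts against 26655166 and 23831093 in IFPS pads 4 and 5. IF pad 2 had 28910219 against 30429392 and 23443062 in IF pads 1 and 3. IFPS pad 3 had 26890318 counts against 28470359 and 26744568 in IFPS pads 1 and 2. Detected genes did follow the order there, with 19181 in IFPS pad 3 against 19692 and 19531 in IFPS pads 1 and 2. IFPS pad 6 had 18734 against 19738 and 19468 in IFPS pads 4 and 5. IF pad 2 had 19010 against 19549 and 19335 in IF pads 1 and 3. The share of the 10 most abundant genes was 13.3%, 17% and 15% in IFPS pads 3 and 6 and IF pad 2, each the largest of its line and set. The part of depth and library makeup in the result was not tested.

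Groups of genes were formed from the wildtype cell libraries, since no marker list could be used. A gene was called MEC-enriched, adipocyte-enriched or fibroblast-enriched by its mean log2 CPM, taken with the prior count given below. That mean had to lie at least 4-fold higher in the cell type than in both others. A gene was called pad-only when its mean CPM was under 0.5 in all 3. The MECs and fibroblasts were cultured, so these groups describe the prepared cells and not markers of cells in place. Pad-only genes are genes of low mean level in the prepared wildtype cells, and PS cells did not enter the definition. In the pads 784 MEC-enriched, 998 adipocyte-enriched, 279 fibroblast-enriched and 1990 pad-only genes were tested.

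The MEC-enriched genes had a positive median difference between PS and wildtype pads in both sets. Their mean log2 CPM was 2.76, 3.11 and 3.35 in PS pads 1 to 3 against 3.15, 2.91 and 2.84 in wildtype pads 1 to 3. In set 13-21 it was 2.86, 3.11 and 2.99 in PS pads against 1.92, 2.55 and 2.95 in wildtype pads. The lines overlapped in both sets, and wildtype pad 4 was the lowest of the 12 pads. The median log2 fold change of the group was 0.32, against -0.00025 over all genes tested, and 82.1% of the group had a positive difference, against 49.95% of all genes. At an unadjusted p under 0.05, 182 of the 784 genes (23.2%) were higher and 11 (1.4%) lower, beside 6.3% and 3.94% of all genes. With adjustment edgeR called 0 of them, limma voom with quality weights 1 and DESeq2 9, of which 8 were higher. Over all 16384 genes the 3 tools called 1, 6 and 81. The median was 0.21 in set 1-12 and 0.45 in set 13-21. It was 0.2 without wildtype pad 4 and 0.14 without wildtype pads 4 and 5.

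The other groups lay lower in PS pads or turned with the set. Adipocyte-enriched genes had a median log2 fold change of -0.11, with 32.3% of them positive, and medians of -0.06 in set 1-12 and -0.19 in set 13-21. PS pad 3 had the lowest mean of that group, 3.58, against 3.87 to 4.19 in the other 11 pads, and without it the median was -0.07. Fibroblast-enriched genes had a median of -0.18, with 32.3% positive, but 0.1 in set 1-12 and -0.43 in set 13-21. In set 13-21 the fibroblast-enriched means of PS pads, 2.69 to 2.77, lay below those of wildtype pads, 2.98 to 3.18, without overlap, while in set 1-12 the ranges of 2.85 to 3.14 and 2.8 to 2.99 overlapped. At an unadjusted p under 0.05, 50 adipocyte-enriched (5.01%) and 27 fibroblast-enriched genes (9.68%) were lower and 23 (2.3%) and 11 (3.94%) higher. Of all genes tested 3.94% were lower and 6.3% higher at that p, and 49.95% were positive. With adjustment edgeR called 0 in either group. DESeq2 called 5 of 998 adipocyte-enriched and 4 of 279 fibroblast-enriched genes, beside 81 of all 16384 genes.

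The means of the pad-only genes did not overlap between the lines in either set. Their mean log2 CPM was -1.27 to -0.78 in PS pads 1 to 3 and -0.45 to -0.29 in wildtype pads 1 to 3. In set 13-21 it was -0.62 to -0.26 in PS pads and -1.33 to -0.75 in wildtype pads. The order of the lines was reversed between the sets, with median log2 fold changes of -0.29 and 0.34. Over both sets the median was 0.01. Of the 1128 pad-only genes in the test of the sets, 303 (26.9%) passed, 278 of them with the larger PS difference in set 13-21 and 25 with the smaller. Among MEC-enriched genes 70 of 745 passed (9.4%), among adipocyte-enriched genes 309 of 977 (31.6%) and among fibroblast-enriched genes 64 of 261 (24.5%), beside 20.4% of all genes. The median interaction was 0.41 for pad-only and -0.52 for fibroblast-enriched genes.

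**Figure D3:**
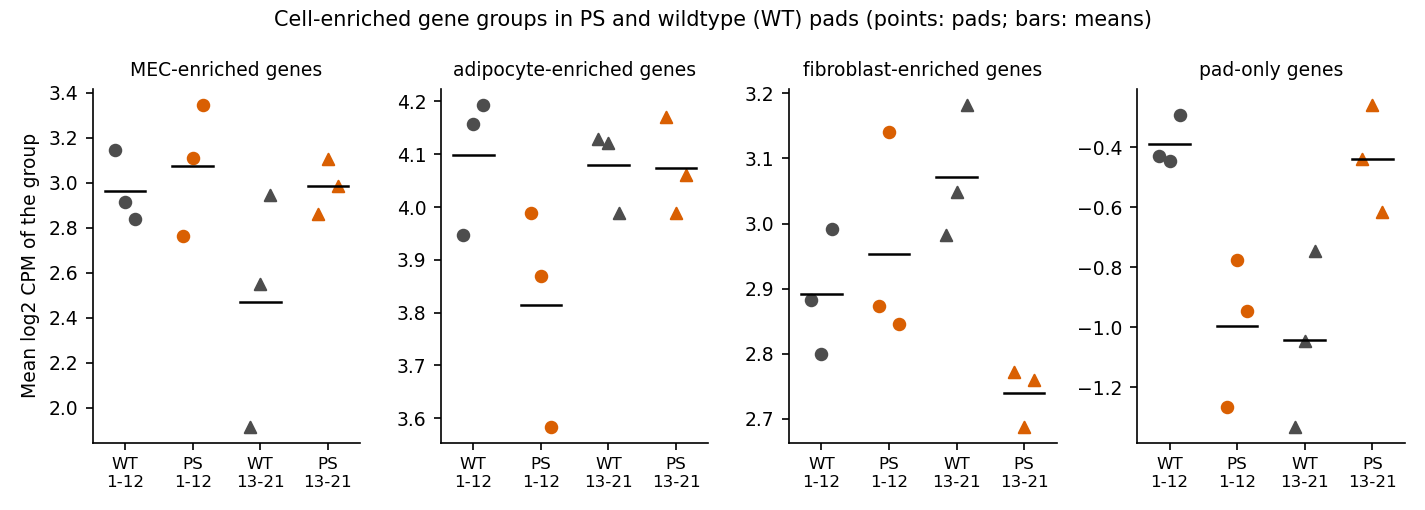
Mean log2 CPM of the genes of each group in every PS (orange) and wildtype (WT, gray) pad by title-number set, with bars at the means of 3 pads. Pad-only genes are lower in PS in set 1-12 and higher in set 13-21, and the wildtype pads of set 13-21 include the lowest MEC-enriched value of 1.92.

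With the pad-only mean as a covariate, 3 genes were called in the test of the sets and 89 in PS against wildtype pads, 26 higher and 63 lower. The pad-only mean is computed from these pads and contains genes called in the test of the sets. With the adipocyte-enriched mean as a covariate 3 genes were called between the lines, with the fibroblast-enriched mean 2 and with the MEC-enriched mean 1.

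Pads whose values did not overlap between the lines were rare. In 70 genes, 0.427% of those tested, all 6 PS pads lay above all 6 wildtype pads, and in 25 genes, 0.153%, all lay below. The log2 fold changes of the higher genes ran from 0.11 to 3.18 with a median of 0.48, and 12 exceeded 1 on the log2 scale. Those of the lower genes ran from -3.69 to -0.17 with a median of -0.58, and 4 were below -1. Of the higher ones, 4 were among the 784 MEC-enriched genes, 1 among the 998 adipocyte-enriched, 1 among the 279 fibroblast-enriched and 4 among the 1990 pad-only genes. Of the lower ones the counts were 1, 1, 1 and 3.

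The called gene was ENSRNOG00000003905. Its values were 31.4, 28 and 25.3 CPM in PS pads 1 to 3 and 31.7, 30.7 and 28 CPM in PS pads 4 to 6. The wildtype pads had 49.4, 54.1 and 56.8 CPM in set 1-12 and 62.1, 54.9 and 45.9 CPM in set 13-21. Every PS pad lay below every wildtype pad, with means of 29.2 ± 2.48 and 53.9 ± 5.69 CPM (SD, n = 6 each) and at least 612 counts behind each value. ENSRNOG00000003905 fell by 0.88 ± 0.11 (SE) on the log2 scale, with an adjusted p of 0.00502 in the edgeR quasi-likelihood test (Benjamini-Hochberg adjusted). The difference was -0.94 in set 1-12 and -0.84 in set 13-21, and the edgeR adjusted p for a difference between the sets was 0.759. The call held when each of the 12 pads was left out in turn, but the adjusted p was 0.0678 and 0.0856 in edgeR fits of single sets and 0.0779 without wildtype pads 4 and 5, where the log2 difference was -0.77.

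The same gene was also lower in all 3 kinds of prepared PS cells. These are other libraries, but they carry the title numbers 10 to 12 of PS pads 1 to 3, and the wildtype cells the numbers 1 to 3 of wildtype pads 1 to 3. Nothing in the labels tells if equal numbers mean the same animal, so pads and cells may share animals. PS MECs had 31.6, 32.5 and 28.9 CPM against 71.7, 65.2 and 78.6 CPM in wildtype MECs. PS adipocytes had 18.6, 17.4 and 18.6 CPM against 37.2, 45.9 and 45.5 CPM, and PS fibroblasts 34.6, 36.3 and 36.1 CPM against 78.6, 86.9 and 86.3 CPM. No PS library overlapped a wildtype library of its cell type. ENSRNOG00000003905 fell by 1.21 ± 0.08 (SE) on the log2 scale in MECs (adjusted p = 3.79e-05), by 1.24 ± 0.09 in adipocytes (0.000405) and by 1.24 ± 0.07 in fibroblasts (6.29e-06), each by the edgeR quasi-likelihood test (Benjamini-Hochberg adjusted).

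In the other lines the level of ENSRNOG00000003905 was spread over both ranges. IF pads had 47.4 to 55.9 CPM, IFPS pads 1 to 3 had 47.1 to 53.5 CPM, and IFPS pads 4 to 6 had 30.5 to 37.7 CPM. IF pads and IFPS pads 1 to 3 lay within the wildtype range, and IFPS pads 4 to 6 lay below every wildtype pad. Of these, IFPS pad 4 (30.5 CPM) lay in the PS range, and IFPS pads 5 and 6 (33.9 and 37.7 CPM) above every PS pad. Comparisons of IF and IFPS with wildtype share the wildtype pads with the PS comparison, and their log2 differences were -0.13 ± 0.15 (SE) and -0.38 ± 0.11, neither called by edgeR (adjusted p of 1 and 0.54). In prepared IF cells the gene fell by 0.5 ± 0.09 on the log2 scale in adipocytes (edgeR adjusted p = 0.00176) and by 0.41 ± 0.07 in fibroblasts (0.0128), and the difference in MECs was -0.31 ± 0.08 (0.0867). In IFPS cells edgeR called it in none of the 3 cell types, with log2 differences of -0.2, -0.0014 and 0.03 in MECs, adipocytes and fibroblasts and adjusted p of 0.409, 1 and 0.824. PS tumors ranged from 32.3 to 46.5 CPM over 9 libraries. They overlapped the tumors of the other lines, with 34.65 to 48.41 CPM in 5 IF tumors and 35.49 to 76.78 CPM in 9 IFPS tumors.

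**Figure D4:**
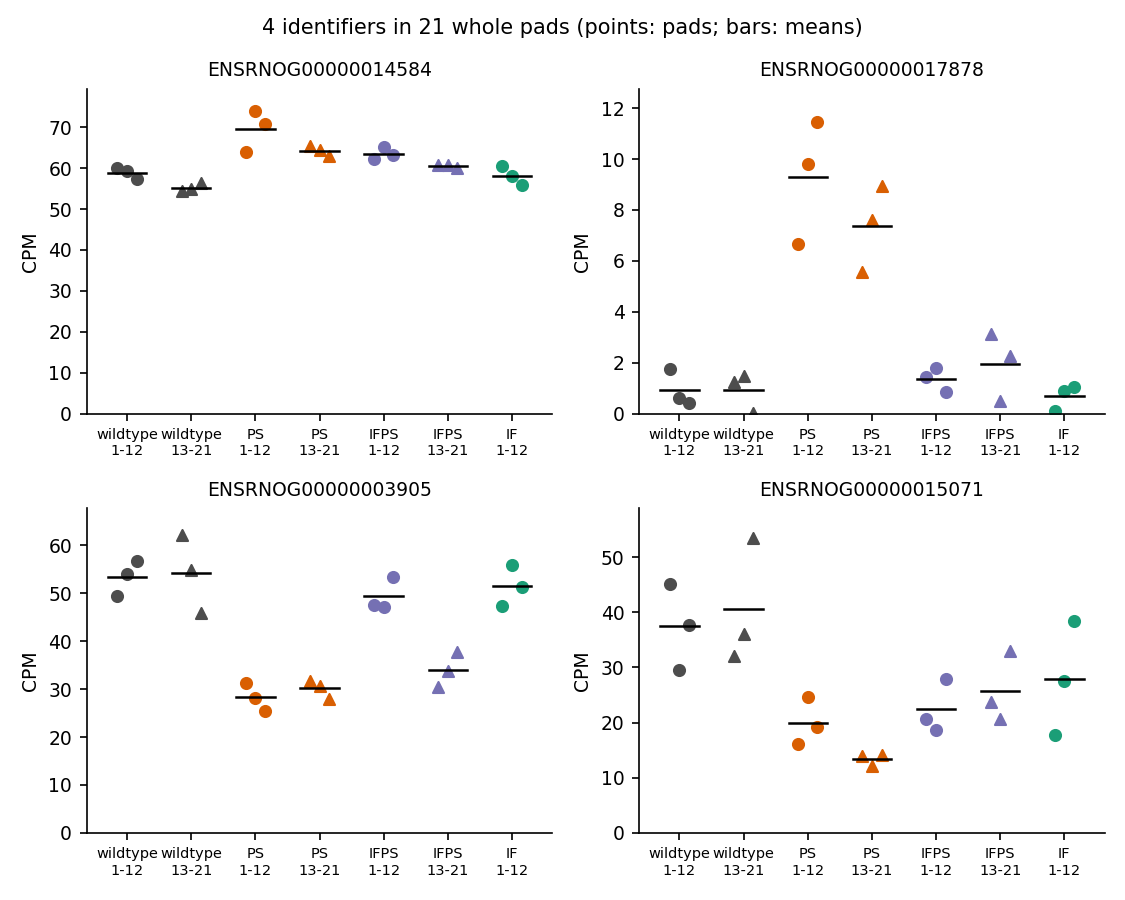
CPM of the 4 named identifiers in the 21 whole pads by line and title-number set, with points for pads, bars for means and axes from 0. ENSRNOG00000003905 lies at 25.3 to 31.7 CPM in PS and 45.9 to 62.1 CPM in wildtype pads, and IFPS pads fall in 2 ranges by set.

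ENSRNOG00000015071, a fibroblast-enriched gene by the definition above, had the second smallest p among the lower genes and did not pass the test. PS pads 1 to 3 had 16.1, 24.6 and 19.1 CPM and PS pads 4 to 6 had 13.8, 12.1 and 14.1 CPM. Wildtype pads had 45.1, 29.6 and 37.7 CPM in set 1-12 and 32.1, 36.1 and 53.5 CPM in set 13-21. The lines did not overlap in either set, and the log2 difference was -1.24 ± 0.21 (SE), with an adjusted p of 0.0771 in the edgeR quasi-likelihood test (Benjamini-Hochberg adjusted). The differences of the sets were -0.93 and -1.6, and 8 of 29 alternatives called the gene, DESeq2 among them with an adjusted p of 4.2e-05. The gene was not called by edgeR in prepared cells, where its log2 differences were -1.54 ± 0.39 in MECs, -0.56 ± 0.29 in adipocytes and 0.46 ± 0.3 in fibroblasts, with adjusted p of 0.061, 0.497 and 0.3. Levels in wildtype cells reached 8.64 CPM in fibroblasts and 1.43 CPM in MECs, below every wildtype pad. IF pads had 17.8 to 38.4 CPM and IFPS pads 18.6 to 33 CPM, between the means of PS and wildtype pads.

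ENSRNOG00000014584 had the smallest p among the higher genes and did not pass the test either. PS pads had 64.1, 73.9 and 70.9 CPM in set 1-12 and 65.4, 64.4 and 63 CPM in set 13-21. Wildtype pads had 60, 59.4 and 57.4 CPM in set 1-12 and 54.4, 54.9 and 56.3 CPM in set 13-21. All PS pads lay above all wildtype pads, by a small margin of 63 over 60 CPM at the closest, and the log2 difference was 0.23 ± 0.04 (SE), with an adjusted p of 0.0771 by edgeR. The sets gave 0.22 and 0.23, and 4 of 29 alternatives called the gene. IFPS pads, with 60.16 to 65.25 CPM, also lay above every wildtype pad and overlapped the PS pads. Their log2 difference from the same wildtype pads was 0.12 ± 0.04, not called (edgeR adjusted p of 0.543). IF pads had 55.96 to 60.54 CPM and overlapped the wildtype pads. In fibroblasts the gene fell by 0.22 ± 0.06 on the log2 scale in PS libraries (edgeR adjusted p = 0.0369), from 77.5 ± 6.48 to 66.7 ± 1.01 CPM (SD, n = 3 each). That fibroblast call was lost in 7 of 10 alternatives, with an edgeR or DESeq2 adjusted p of 0.0115 to 0.131 over all of them. Against the same wildtype fibroblasts, the gene also fell in IF fibroblasts, by 0.26 ± 0.07 (edgeR adjusted p = 0.036). In IFPS fibroblasts the log2 difference was 0.15 ± 0.06, not called (0.207). In MECs the log2 difference was 0.06 ± 0.04 and in adipocytes -0.08 ± 0.11, neither called.

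ENSRNOG00000017878 had the largest ratio of the 4. PS pads had 6.66, 9.81 and 11.5 CPM in set 1-12 and 5.57, 7.62 and 8.94 CPM in set 13-21, from 130 to 293 counts. Wildtype pads had 1.75, 0.611 and 0.426 CPM in set 1-12 and 1.25, 1.49 and 0.04 CPM in set 13-21, from 1 to 54 counts. The lowest PS pad stood above the highest wildtype pad, with means of 8.34 ± 2.16 and 0.927 ± 0.668 CPM (SD, n = 6 each). The log2 difference was 3.18 ± 0.6 (SE), with differences of 3.3 and 3.04 in the sets, and the adjusted p of 0.163 in the edgeR quasi-likelihood test (Benjamini-Hochberg adjusted) missed the threshold, while 3 of 29 alternatives passed it. IFPS pads, with 0.474 to 3.14 CPM, and IF pads, with 0.095 to 1.04 CPM, lay below every PS pad.

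In prepared cells ENSRNOG00000017878 passed the test in MECs. PS MECs had 9.29, 5.04 and 10.2 CPM against 2.24, 0.714 and 1.58 CPM in wildtype MECs, without overlap. It rose there by 2.44 ± 0.47 (SE) on the log2 scale, with an adjusted p of 0.0252 in edgeR's quasi-likelihood test, a call lost in 5 of 10 alternatives, including 4 of the 6 that leave out 1 library. In adipocytes the log2 difference was -0.15 ± 0.74, with 0.86 to 1.57 CPM in PS and 0.502 to 2.34 CPM in wildtype libraries. Fibroblasts had at most 0.242 CPM and were not tested. Whether the PS difference itself differed between the cell types was not tested.

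**Figure D5:**
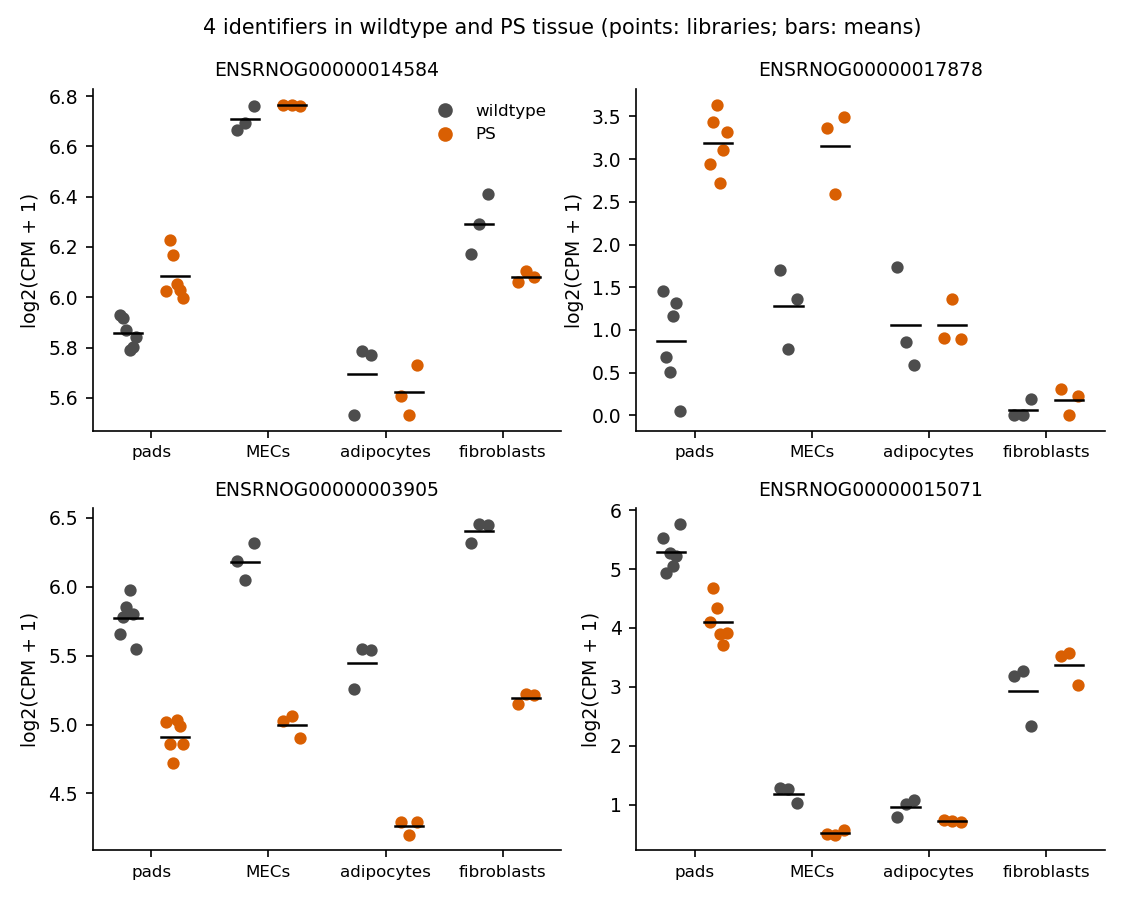
Log2 of CPM plus 1 of the 4 named identifiers in PS (orange) and wildtype (gray) pads, MECs, adipocytes and fibroblasts, with points for libraries and bars for means. ENSRNOG00000003905 is lower in PS in all 4 kinds of sample, and ENSRNOG00000017878 is higher in PS in pads and MECs.

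At the adjusted threshold, edgeR called more genes between PS and wildtype in each kind of prepared cells than in the pads over both sets. In MECs 347 of 14688 genes (2.36%) were called by edgeR, 207 higher and 140 lower, in adipocytes 54 of 14304 (0.378%), 16 higher and 38 lower, and in fibroblasts 3016 of 13879 (21.7%), 1466 higher and 1550 lower. At an unadjusted p under 0.05 in the same edgeR tests the order was less clear. There were 1679 of 16384 genes in pads, 2785 in MECs, 1680 in adipocytes and 5052 in fibroblasts. Single sets of pads gave 3192 of 15574 genes (set 1-12) and 4593 of 15288 (set 13-21). The common biological coefficient of variation was 0.298 in pads, 0.118 in MECs, 0.217 in adipocytes and 0.136 in fibroblasts. Single libraries moved the MEC count between 72 (without wildtype MEC 1) and 815 (without wildtype MEC 2), the adipocyte count between 2 (without wildtype adipocyte 2, among others) and 145 (without wildtype adipocyte 1), and the fibroblast count between 1152 (without PS fibroblast 2) and 3427.

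Genes called in MECs leaned the same way in pads. Of the 203 genes higher in PS MECs that were tested in pads, 69% had a positive pad difference, against 51.1% of all genes shared by both tests, and 29 (14.3%) were higher at an unadjusted p under 0.05 while 2 were lower. Of the 137 genes lower in PS MECs, 22.6% had a positive pad difference, 11 (8.03%) were lower at that p and 4 (2.92%) higher. Of all genes shared by both tests, 6.78% were higher and 3.81% lower at that p. The medians were 0.09 and -0.13 on the log2 scale. Neither direction stood apart in set 1-12, where 55% of the higher and 52.55% of the lower genes were positive, against 55.6% of all shared genes, with medians of 0.02 for both and 0.03 for all. In set 13-21, which holds wildtype pads 4 and 5, 66.7% and 29.9% were positive, against 49.55% of all, with medians of 0.17 and -0.26. Outside the cell-enriched and pad-only groups the shares were 68.3% and 21.4%.

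Genes called in fibroblasts leaned the opposite way. Of the 1539 genes lower in PS fibroblasts and tested in pads, 63.8% had a positive pad difference, against 49.8% of all shared genes, and 221 (14.4%) were higher at an unadjusted p under 0.05 while 36 were lower. Of the 1449 higher in PS fibroblasts, 42.7% were positive in pads, with 75 (5.18%) higher and 79 (5.45%) lower at that p. Of all shared genes 6.44% were higher and 3.95% lower at that p. In set 1-12 the lower genes were near all shared genes, with 57.8% positive against 55.2% and medians of 0.05 and 0.03. In set 13-21 they had 61.8% positive against 48.65%, and medians of 0.1 and -0.01. Of the 38 genes lower in PS adipocytes, 28.9% were positive in pads, against 49.2% of all shared genes, and of the 16 higher ones 9 were positive.

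The genes without overlap in pads were then looked at in the prepared cells. Of the 70 higher in every PS pad, 59 were tested in fibroblasts, where 12 (20.3%) were also higher, against 49.7% of all genes; 25 were called lower and 4 higher there. In MECs 38 of 66 (57.6%, against 49.3% of all genes) were also higher, 5 of them called, and none was called lower. In adipocytes 26 of 64 (40.6%, against 49.2%) were higher, and none was called in either direction. Of the 25 lower in every PS pad, 18 of 24 (75%) were also lower in MECs, 15 of 21 (71.4%) in adipocytes and 13 of 21 (61.9%) in fibroblasts, against 50.7%, 50.8% and 50.3% of all genes. Those called lower were 2 in MECs, 1 in adipocytes and 2 in fibroblasts, and 1 was called higher, in fibroblasts. Over all genes and both directions, edgeR called 2.36% in MECs, 0.378% in adipocytes and 21.7% in fibroblasts.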

How the data were processed

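The authors deposited a table of unnormalized read counts for 32883 Ensembl identifiers in 80 libraries, and per the submitters' processing notes used Trim Galore, STAR 2.5.2b and the build Rnor_6.0. The counting tool, annotation and strand setting are not given in the sources used here, so overlapping, antisense and near-identical genes are uncertain. Per the labels' protocols, poly(A) libraries were made from homogenized pads.

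Counts were analysed as deposited in R 4.3.3 with edgeR 4.0.16 (filterByExpr, TMM, quasi-likelihood test, Benjamini-Hochberg adjustment over all genes tested, adjusted p under 0.05). Pads were fitted over all 21 with set as covariate, the interaction over the 12 PS and wildtype pads, and each cell type over its 12 libraries. Alternatives used DESeq2 1.42.0, limma 3.58.1, other scalings, filters, thinned counts and left-out libraries. The tests were checked on simulated data with 200 changed genes each. The pad test recovered 87% of them, with 3.33% of its calls on unchanged genes. The interaction test recovered 55.5%, with 8.26% of its calls on unchanged genes, above the threshold of 0.05. For MECs, adipocytes and fibroblasts, 95.5%, 74.5% and 93% were recovered, with 4.02%, 4.49% and 6.06% of calls on unchanged genes. A prior count of 2 was added before taking log2 CPM.

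The comparison and all gene lists were chosen with earlier results of these data known. Identifiers were named by a rule: with no symbols, the 2 higher and 2 lower ones with the smallest p whose pads do not overlap and whose sets have equal signs. The 34 symbol lists, Nf1 included, were not used here, and the cell-enriched groups that replace them were defined after seeing the data.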

Additional observations from a re-analysis of the deposited data

Results flagged for a closer look

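The difference between PS and wildtype pads differed between the title-number sets in 3120 genes by the interaction test of edgeR. Its values by pad and its dependence on single pads stand with the results, and its cause was not tested.

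ENSRNOG00000014584 lay higher in PS than in wildtype pads and lower in PS than in wildtype fibroblasts, with a mean of 66.7 CPM in PS fibroblasts, and no library of either comparison crossed over. IFPS pads also lay above every wildtype pad, and IF fibroblasts below every wildtype fibroblast library. The difference between pads and fibroblasts was not tested.

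Of 36 groups of libraries examined for a single library far from the rest, 2 held one, and chance gives about 1 in 20. PS pad 1 had 18304 detected genes, the nearest PS pad 19236 and the farthest 19688, and PS pad 1 also had the fewest counts of the 12 pads. For ENSRNOG00000017878, PS tumor 9 had 4.97 CPM, where the next PS tumor had 0.945 CPM and the lowest 0 CPM.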

How the results depend on the processing

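Alternatives chosen after seeing the data were the averages over sets, the covariates from gene groups, leaving out wildtype pads 4 and 5, the thinned and voom fits of the sets, leaving out single pads in the correlation of the sets, and every alternative of the group medians. For PS against wildtype pads the 1 call became 81 with DESeq2, 6 with limma voom, 9 in set 1-12, 3 in set 13-21, 3 when the difference was averaged over the sets (with 12 or 21 pads), 89 with the pad-only mean, 2 with the fibroblast-enriched mean and 3 with the adipocyte-enriched mean as covariate, and 0 without wildtype pads 4 and 5. Leaving out 1 pad gave 1 to 6 calls, 6 without PS pad 1 and 4 without PS pad 2. RLE scaling, other filters, thinning, no set term and a fit of the 12 pads alone gave 1. For the interaction, 3120 genes became 3 with the pad-only mean as covariate, 12 without wildtype pads 4 and 5 and 6347 with limma voom, and 1235 to 5192 without single pads. RLE scaling, no filter, DESeq2, thinning and a fit of 21 pads kept it between 2130 and 4410. For MECs, DESeq2 called 882 and the fit of PS and wildtype libraries alone 36, with 72 to 815 without single libraries. For adipocytes the counts were 116 without a filter, 497 with DESeq2, 146 from PS and wildtype libraries alone and 2 to 145 without single libraries. For fibroblasts they were 1265 from PS and wildtype libraries alone and 1152 to 3427 without single libraries. The causes of these shifts were not tested. The correlation of the sets stayed negative, from -0.68 to -0.45, without single pads. No alternative reversed the sign of a named identifier in pads. No paired analysis was possible because PS and wildtype libraries share no title number. The symbol-based marker scores and gene lists that had been planned as alternatives were not run. Genes near the count filter rest on few counts: ENSRNOG00000017878 had 1 count in wildtype pad 6.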
